A study of Mus musculus with 16 samples.

Results

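Oxidative phosphorylation subunit genes encode the protein complexes with which mitochondria turn the energy of nutrients into ATP. Complex I takes electrons from NADH and complex II takes them from succinate. Complex III passes the electrons to cytochrome c, and complex IV, cytochrome c oxidase, hands them to oxygen. Complexes I, III and IV pump protons while the electrons pass, and complex V, the ATP synthase, uses the returning protons to make ATP. Most subunits are encoded in the nucleus and imported, while a small set is encoded by mitochondrial DNA (mtDNA). In the lung, alveolar type 2 cells are rich in mitochondria, and the walls of mouse pulmonary veins hold cardiac muscle, which uses its own isoforms of several complex IV subunits.

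The genes were chosen by name alone: every gene whose symbol on the array platform started with Ndufa, Ndufb, Ndufc, Ndufs, Ndufv, Sdha to Sdhd, Uqcr, Cox4 to Cox8 or Atp5, pseudogenes left out. This gave 94 genes of the 24306 with a symbol on the array. Of these, 35 belonged to complex I, 4 to complex II, 8 to complex III, 18 to complex IV and 15 to complex V. The prefixes also took in 14 genes that are assembly factors or have another role, such as the Ndufaf and Sdhaf genes, and these were counted apart. Ndufa4 and its paralogue Ndufa4l2 were counted with complex IV, in which the NDUFA4 protein is found. Each gene was represented by 1 array feature, the one with the highest mean signal, and 41 of the 94 had further features.

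The arrays measured RNA of the right lung in 16 mice aged 8 weeks, each on 1 Agilent array. Mice overexpressing the transcription factor Fra-2 (gene symbol Fosl2; TG, carrying the transgene) were compared with wild-type (WT) littermates, with 4 females and 4 males of each genotype, described by the submitters as biological replicates. The line came from a mixed BL6CBA background and was back-crossed to C57BL6/J. Neither the labels nor the methods name the promoter that drives the transgene or the cells in which it acts. The lung was homogenised whole, so that fewer cells of a type and less RNA per cell cannot be told apart in any value below.

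Values are log2 signals, so a difference of 1 is a doubling, and a log2 fold change is the TG mean minus the WT mean. A gene was called when the Benjamini-Hochberg adjusted p of a limma fit over all 24306 genes was below 0.05. The 2 features of Fosl2 differed: the brighter lay between 8.90 and 10.38 in WT and between 8.71 and 10.06 in TG mice, whereas the dimmer lay between 2.39 and 4.91 in WT and between 6.56 and 10.66 in TG mice, with no overlap. The lung markers Sftpc, Sftpb, Ager and Scgb1a1 were all above 15 on all arrays. Arrays of 1 group correlated with a mean r of 0.970 to 0.988 per array, lowest for TG female 1. Together with TG female 4 and WT male 1 this array had stood apart in an earlier look at these data, and counts without them are given beside the main ones. The correlations did not single out the same arrays. TG females 3 and 4 were both at 0.974, and WT male 1 (0.980) was above TG female 2 (0.977).

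A minority of the oxidative phosphorylation genes were called lower in Fra-2 TG lungs, while most had a log2 fold change below 0. Of the 94 genes, 14 were called lower and 0 higher, where 7.08% of all genes were called lower and 6.05% higher. A mean signal of at least 8.73 was reached by 84 of the 94 genes, 12 of them among the called ones, and by 7678 genes in all, of which 9.82% were called lower and 11.7% higher. The log2 fold change was below 0 for 73 of the 94 genes, against 53.4% of all genes and 54.5% of the 7678 brighter ones, and its median was -0.16, against -0.028 over all genes. The 14 called genes were Ndufb2, Ndufa11, Ndufs8, Ndufc1, Ndufv1, Ndufa9 and Ndufb6 of complex I, Sdhb of complex II, Cox8b, Cox6a2, Cox6b2 and Ndufa4 of complex IV, Atp5c1 of complex V, and the assembly factor Ndufaf3. They fell by 0.33 to 1.18 on the log2 scale.

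**Figure D1:**
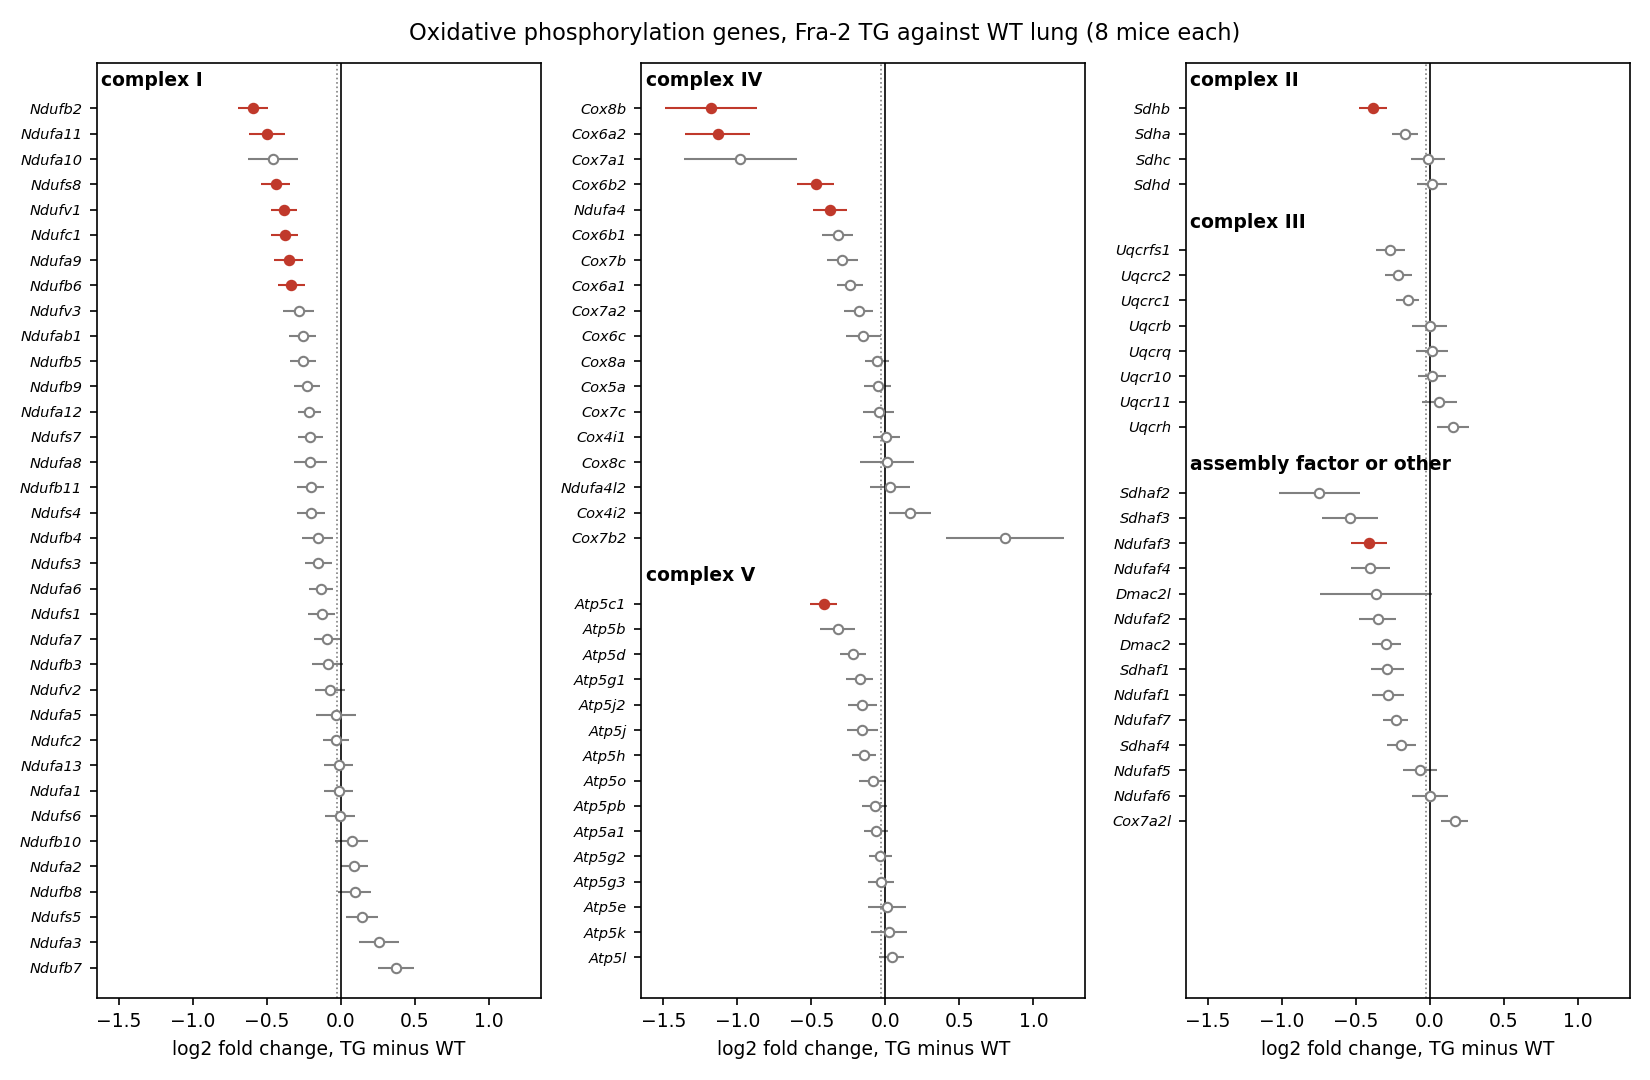
Log2 fold change (TG minus WT, x axis) of each of the 94 genes, grouped by complex and ordered by value, with the standard error of the fit as bars. Filled red points are the 14 genes called lower, open grey points were not called, the solid line is 0 and the dotted line is the median of all genes (-0.028).

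Without TG females 1 and 4 the count of genes called lower was 5, and 4 of those were among the 14: Atp5c1, Cox6a2, Ndufb2 and Ndufb6. In that fit 2.97% of all genes were called lower. The share of genes below 0 was not smaller there, at 80 of 94. Leaving out 1 mouse gave 9 without WT male 3 or TG male 1, up to 18 without WT male 1 or TG female 3. Without all 3 arrays that stood apart, 11 genes were called lower, 9 of them among the 14, at 5.54% of all genes. Other settings called more. After a filter on dim genes that kept 16204 genes, 29 of the 93 genes that remained of the set were called lower, at 14.3% of all genes kept, and after a stricter one that kept 12153 genes 35 of 90, at 18.1%. A trended and robust variance gave 27 (8.94% of all genes) and array weights 22 (9.73%). Each of these 4 fits held all of the 14.

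The sequences upstream of 5 genes are shown for the genes the results turn on. They were taken from RefSeq (GRCm38.p6), as the 250 bases before the start of each gene, 5′ to 3′ on the strand of the gene. Ndufb2 had the smallest adjusted p of complex I, Ndufa11 was the called gene with a site for NRF1 (an activator of respiratory chain genes), Atp5c1 held an AP-1 site (Fra-2 is a subunit of AP-1) and was the gene whose groups did not overlap, and Cox8a and Cox8b are the ubiquitous and the muscle isoform of 1 subunit. Capitals mark the motif found, and 3 of the 5 have none. The windows were Ndufb2 at chr6:39592315-39592564 on the plus strand, Ndufa11 at chr17:56717512-56717761 on the plus strand, Atp5c1 at chr2:10080511-10080760 on the minus strand, Cox8a at chr19:7217617-7217866 on the minus strand and Cox8b at chr7:140900447-140900696 on the minus strand.
Ndufb2: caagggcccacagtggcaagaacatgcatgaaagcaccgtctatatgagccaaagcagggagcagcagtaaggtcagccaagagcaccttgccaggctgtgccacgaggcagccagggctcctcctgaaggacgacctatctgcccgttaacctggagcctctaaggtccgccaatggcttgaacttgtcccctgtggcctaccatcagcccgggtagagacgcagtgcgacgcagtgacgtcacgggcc
Ndufa11: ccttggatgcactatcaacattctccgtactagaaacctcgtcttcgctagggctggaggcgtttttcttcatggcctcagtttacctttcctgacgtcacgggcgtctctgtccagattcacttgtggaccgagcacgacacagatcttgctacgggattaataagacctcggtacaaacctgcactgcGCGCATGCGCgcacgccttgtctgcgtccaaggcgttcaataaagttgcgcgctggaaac
Atp5c1: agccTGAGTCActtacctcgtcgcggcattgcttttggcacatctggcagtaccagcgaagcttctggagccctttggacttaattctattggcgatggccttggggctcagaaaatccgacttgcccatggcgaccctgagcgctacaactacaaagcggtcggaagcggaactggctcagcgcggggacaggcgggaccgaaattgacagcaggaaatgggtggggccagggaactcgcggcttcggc
Cox8a: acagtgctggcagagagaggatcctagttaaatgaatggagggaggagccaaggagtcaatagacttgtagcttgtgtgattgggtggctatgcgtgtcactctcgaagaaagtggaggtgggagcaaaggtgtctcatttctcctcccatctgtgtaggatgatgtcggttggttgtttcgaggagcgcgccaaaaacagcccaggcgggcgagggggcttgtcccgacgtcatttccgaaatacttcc
Cox8b: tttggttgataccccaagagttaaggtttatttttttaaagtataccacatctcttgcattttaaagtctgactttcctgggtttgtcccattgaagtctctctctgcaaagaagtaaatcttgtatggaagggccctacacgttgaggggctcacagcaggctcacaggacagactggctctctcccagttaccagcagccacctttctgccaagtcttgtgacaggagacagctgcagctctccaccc

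A promoter window was found for 79 of the 94 genes, and 13 of these were called lower. The NRF1 motif, GCGCA followed directly by its reverse complement TGCGC and searched on both strands, was present in 5 of the 79 windows (6.33%) and in 0.989% of the windows of 19217 genes on the array. The 5 were Ndufa11, the only one called, with the motif 60 bases before the start, and Atp5g2, Atp5k, Cox6a1 and Ndufaf4. The AP-1 motif TGACTCA or its reverse complement was present in 5 of the 79 windows (6.33%) and in 4.19% of all windows. It stood 246 bases before the start of Atp5c1 and 247 before that of Ndufa9, both called, and also in Ndufa13, Ndufa5 and Uqcrh, which were not called. The ETS motif CCGGAAGT, which GABP binds, was in 3.8% of the windows of the set and 3.64% of all windows. CpG dinucleotides numbered 15 per window in the median over the 79 genes and 9 over all genes, but 11 in Cox8a, 1 in Cox8b and 4 in Cox7a1. These are matches of letters in a fixed window, and binding was not measured.

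Averaged over all 94 genes, the level per mouse was 11.86 ± 0.073 in WT and 11.68 ± 0.092 in TG mice (SD, n = 8 each), a difference of -0.18. The WT mice ran from 11.74 (male 4) to 11.96 (female 4) and the TG mice from 11.57 (female 4) to 11.81 (male 2). The lowest means were those of TG females 4, 3 and 1, at 11.57, 11.58 and 11.62. TG female 2 (11.69) and TG males 1 and 4 (11.67 and 11.73) were also below each WT mouse, so that 6 of the 8 TG mice were, whereas TG males 2 and 3 (11.81 and 11.80) lay within the WT range. The difference was -0.27 in females and -0.087 in males, and it was -0.15 when the 3 muscle isoforms of complex IV were left out.

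**Figure D2:**
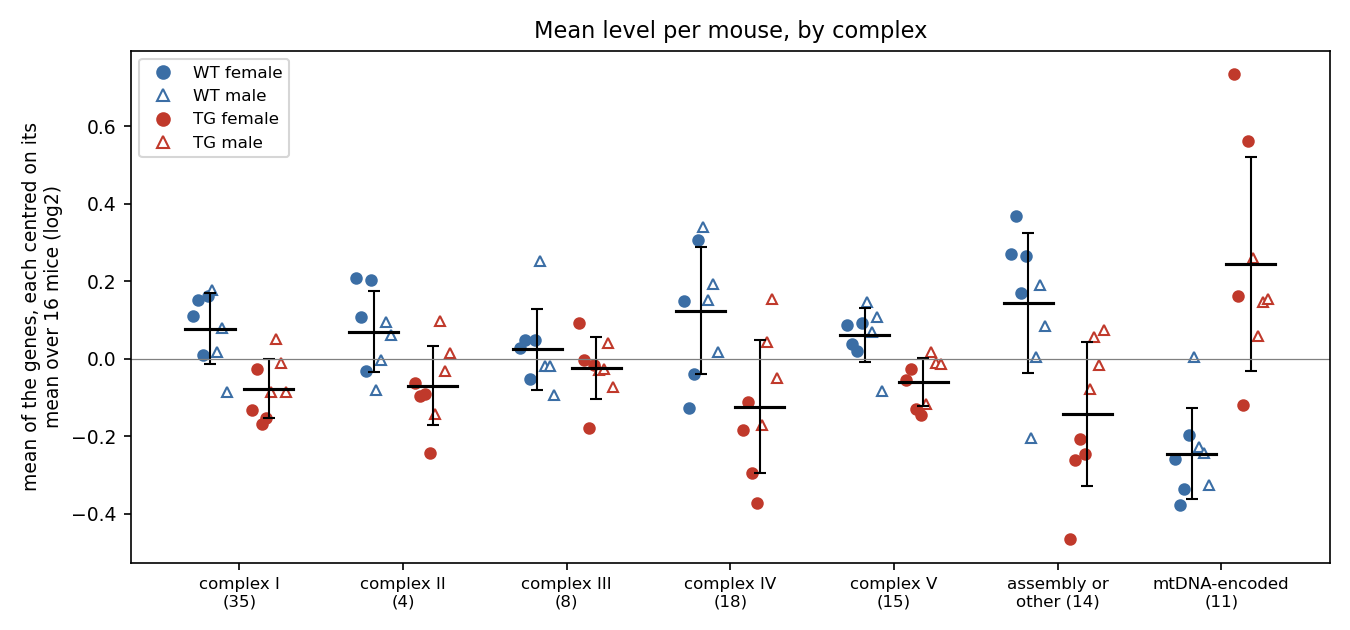
Mean of the genes of each complex in each mouse (y axis, log2, each gene centred on its mean over the 16 mice), with the mtDNA-encoded subunits at the right. Circles are females, triangles males, blue WT and red TG. Horizontal lines are genotype means and bars 1 SD (n = 8). The TG mean lies 0.12 to 0.29 below the WT mean in complexes I, II, IV and V and the assembly factors, 0.049 below it in complex III, and 0.49 above it for the mtDNA-encoded genes.

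Complex I held 7 of the 14 called genes, among 35 (20%, against 7.08% of all genes called lower). The median log2 fold change of the complex was -0.16. Its catalytic core was represented by 6 nuclear genes, all with a log2 fold change below 0 and 2 of them called. Ndufv1 encodes the flavoprotein that binds NADH, where electrons enter the complex. Its signal lay between 12.46 and 12.83 in WT (median 12.75) and between 12.02 and 12.53 in TG mice (median 12.38), and 7 of the 8 TG mice were below each WT mouse. The log2 fold change was -0.38 ± 0.088 (SE, adjusted p = 0.0123, limma). Ndufs8, a core subunit with iron-sulphur clusters, ran from 12.27 to 12.77 (median 12.57) in WT and from 11.69 to 12.48 (median 12.09) in TG mice, and fell by 0.44 ± 0.098 (SE, adjusted p = 0.0101). The other 4 core genes, Ndufs1, Ndufs3, Ndufs7 and Ndufv2, had values between -0.21 and -0.074 and were not called.

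Among the 29 accessory genes of complex I, which surround the core, 5 were called lower. Ndufb2, a subunit of the membrane arm, had the smallest adjusted p of the 94 genes. It lay between 12.85 and 13.18 in WT (median 13.07) and between 11.90 and 12.87 in TG mice (median 12.46), with 7 of 8 TG mice below each WT mouse and TG male 2 just inside the WT range. Its log2 fold change was -0.59 ± 0.10 (SE, adjusted p = 0.00250), a 1.51-fold lower level. A second feature of Ndufb2, dimmer by about 1 unit, gave -0.70 (adjusted p over all features = 0.00493). Of 34 alternative settings, Ndufb2 lost its call only in males fitted alone.

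Ndufa11, also of the membrane arm, lay between 9.17 and 10.07 in WT (median 9.90) and between 8.69 and 9.70 in TG mice (median 9.39), so the groups overlapped widely. It fell by 0.50 ± 0.12 (SE, adjusted p = 0.0158), by 0.94 in females and with a log2 fold change of -0.056 in males. Ndufc1 lay between 12.51 and 12.94 in WT (median 12.75) and between 12.13 and 12.57 in TG mice (median 12.37), with 7 TG mice below each WT mouse (log2 fold change -0.38 ± 0.090 SE, adjusted p = 0.0140). Ndufb6 and Ndufa9, the latter at the junction of the 2 arms, fell by 0.33 and 0.35 (adjusted p = 0.0267 and 0.0294). Ndufa9 lost its call in 16 of the 34 alternatives, 10 of them leaving out 1 mouse.

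At the other end, Ndufb7 had the highest value of the complex. It lay between 13.10 and 13.56 in WT (median 13.20) and between 13.24 and 14.08 in TG mice (median 13.54), with a log2 fold change of 0.37 ± 0.12 (SE, adjusted p = 0.0578), short of the threshold, and WT male 1 was the highest WT mouse. It passed the threshold under 9 alternatives and was the 1 gene called higher in females. The X-linked genes Ndufa1 and Ndufb11 gave -0.015 and -0.20, neither called. Altogether 29 of the 35 genes of complex I were below 0.

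Of the 4 genes of complex II, 1 was called lower, where 7.08% of all genes were. The catalytic head is formed by Sdhb and Sdha. Sdhb, the iron-sulphur subunit, lay between 12.94 and 13.23 in WT (median 12.98) and between 12.28 and 12.99 in TG mice (median 12.63), a fall of 0.39 ± 0.095 (SE, adjusted p = 0.0160), and Sdha, the flavoprotein, gave -0.17 (adjusted p = 0.217). The membrane anchors Sdhc and Sdhd gave -0.015 and 0.015 (adjusted p = 0.948 and 0.941), and their ranges in WT and TG mice overlapped throughout. For Sdhb, 7 of 8 TG mice were below each WT mouse, and its second, dimmer feature gave -0.67 (adjusted p over all features = 0.0264). The difference between head and anchors was not tested.

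None of the 8 genes of complex III was called, where 7.08% of all genes were called lower. The median log2 fold change of the complex was 0.0057. Uqcrfs1, the Rieske iron-sulphur protein, had the lowest value, -0.27 ± 0.098 (SE, adjusted p = 0.0839), followed by the core proteins Uqcrc2 at -0.21 and Uqcrc1 at -0.15. Uqcrfs1 lay between 11.33 and 11.87 in WT (median 11.54) and between 11.03 and 11.51 in TG mice (median 11.31), with 4 TG mice below each WT mouse. The 5 small subunits Uqcrb, Uqcrq, Uqcr10, Uqcr11 and Uqcrh lay between -0.0010 and 0.15. Without TG females 1 and 4 the median of the complex was -0.088, and without WT male 1 it was 0.061.

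In complex IV the muscle isoforms had the lowest log2 fold changes of all 94 genes. Cox8b, Cox6a2 and Cox7a1 are the isoforms used in heart and skeletal muscle in place of the ubiquitous Cox8a, Cox6a1 and Cox7a2. Cox6a2 lay between 11.31 and 12.74 in WT (median 12.21) and between 9.99 and 11.69 in TG mice (median 11.27), and fell by 1.13 ± 0.22 (SE, adjusted p = 0.00493), a 2.19-fold lower level. Cox8b lay between 8.76 and 10.99 in WT (median 10.06) and between 7.59 and 9.69 in TG mice (median 9.07), and fell by 1.18 ± 0.31 (SE, adjusted p = 0.0226). Cox7a1 lay between 8.57 and 10.95 in WT (median 10.47) and between 7.41 and 10.27 in TG mice (median 9.46), with a log2 fold change of -0.98 ± 0.38 (SE, adjusted p = 0.105), not called. The same mice were low for all 3 genes: WT females 2 and 3 among the WT, and TG females 1, 3 and 4 among the TG mice.

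None of the ubiquitous counterparts was called. Cox8a gave -0.057 (adjusted p = 0.686), Cox6a1 -0.24 (0.0866) and Cox7a2 -0.18 (0.253). Cox6a1 was close to the top of the scale, between 15.07 and 15.74 on a scale that ended just below 16. The muscle isoforms went with the heart muscle markers across the mice, though not in each mouse. As means centred over the 16 mice, TG female 1 was at -1.10 for the isoforms and -0.34 for the markers. TG male 1 was at -0.27 and -0.70. The mean of 13 cardiac muscle genes lay between 7.41 and 10.66 in WT and between 6.07 and 9.74 in TG mice. It was lowest in WT females 2 and 3 and in TG females 3 and 4. Of the 13, 2 were called lower (15.4%, against 7.08% of all genes). These were Nppa, atrial natriuretic peptide (log2 fold change -3.76, adjusted p = 0.0145), and Pln, phospholamban (-1.69, 0.0463).

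Across the 16 mice, Cox7a1 correlated with the mean of the cardiac muscle genes with Pearson's r = 0.968 (permutation p = 1e-05, the smallest that 100000 resamples can give; Benjamini-Hochberg adjusted p over 36 relations = 0.00018) and Spearman's rho = 0.956 (permutation p = 1e-05, adjusted 0.00018). For Cox8b r was 0.894 (permutation p = 1e-05, adjusted 0.00018) and rho 0.938 (permutation p = 1e-05, adjusted 0.00018), and for Cox6a2 r was 0.828 (permutation p = 0.00011, adjusted 0.00132) and rho 0.882 (permutation p = 2e-05, adjusted 0.00024). Leaving out the 2 mice farthest from the median of the marker mean, r was 0.942, 0.828 and 0.742. Within WT mice r was 0.963 for Cox7a1, 0.902 for Cox8b and 0.906 for Cox6a2 (n = 8; exact permutation p = 0.00580, 0.00382 and 0.00203; adjusted 0.0208, 0.0175 and 0.0122), but only 0.71, 0.53 and 0.57 without the 2 WT females with low markers, so that the relation within WT rested largely on those mice. Spearman's rho within WT was 0.690, 0.762 and 0.714 (exact permutation p = 0.0694, 0.0368 and 0.0576) and did not pass adjustment (0.136, 0.0945 and 0.130). Within TG mice r was 0.961, 0.853 and 0.757 (n = 8; exact permutation p = 0.000372, 0.00528 and 0.0270; adjusted 0.00335, 0.0208 and 0.0730), and 0.833, 0.616 and 0.609 without the 2 farthest mice. Spearman's rho within TG was 0.976, 0.857 and 0.857 (exact permutation p = 0.000397, 0.0107 and 0.0107; adjusted 0.00357, 0.0321 and 0.0321).

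Fat markers moved with genotype as well. Of the 7 white adipocyte genes 5 were called lower. Their median log2 fold change was -2.29 in females, with 5 called, and -0.18 in males, with 0 called. In the test of the difference between the sexes 0 of them were called. Their mean lay between 7.78 and 10.29 in WT and between 6.38 and 8.70 in TG mice. Over 16 mice it correlated with Cox6a2 at r = 0.758 (permutation p = 0.00067, adjusted 0.00482), with Cox8b at 0.681 (permutation p = 0.00388, adjusted 0.0175) and with Cox7a1 at 0.650 (permutation p = 0.00637, adjusted 0.0208), and rho was 0.756, 0.656 and 0.697 (permutation p = 0.0011, 0.00741 and 0.00311; adjusted 0.00792, 0.0296 and 0.0160). Without the 2 mice farthest from the median r was 0.840, 0.801 and 0.770, for Cox6a2 above its 0.742 with the cardiac genes. Within the genotypes no relation with white adipocyte genes passed adjustment, and for Cox6a2 r was 0.594 in WT and 0.560 in TG mice (n = 8; exact permutation p = 0.117 and 0.156; adjusted 0.222 and 0.281). With the skeletal muscle mean r over 16 mice was 0.560 for Cox6a2, 0.544 for Cox7a1 and 0.512 for Cox8b (permutation p = 0.0229, 0.0284 and 0.0416; adjusted 0.0687, 0.0730 and 0.0997), and rho was 0.709, 0.650 and 0.650 (permutation p = 0.00303, 0.00823 and 0.00769; adjusted 0.0160, 0.0296 and 0.0296). Leaving out the 2 farthest mice, those r were 0.779, 0.604 and 0.725, and within the genotypes none passed adjustment. Of the skeletal muscle and brown adipocyte genes none of 10 and none of 6 was called, at 7.08% of all genes called lower, and the defining brown fat gene Ucp1 was at 2.28 to 4.09 on all arrays. The part of heart muscle or fat in the fall of the muscle isoforms was not tested.

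**Figure D3:**
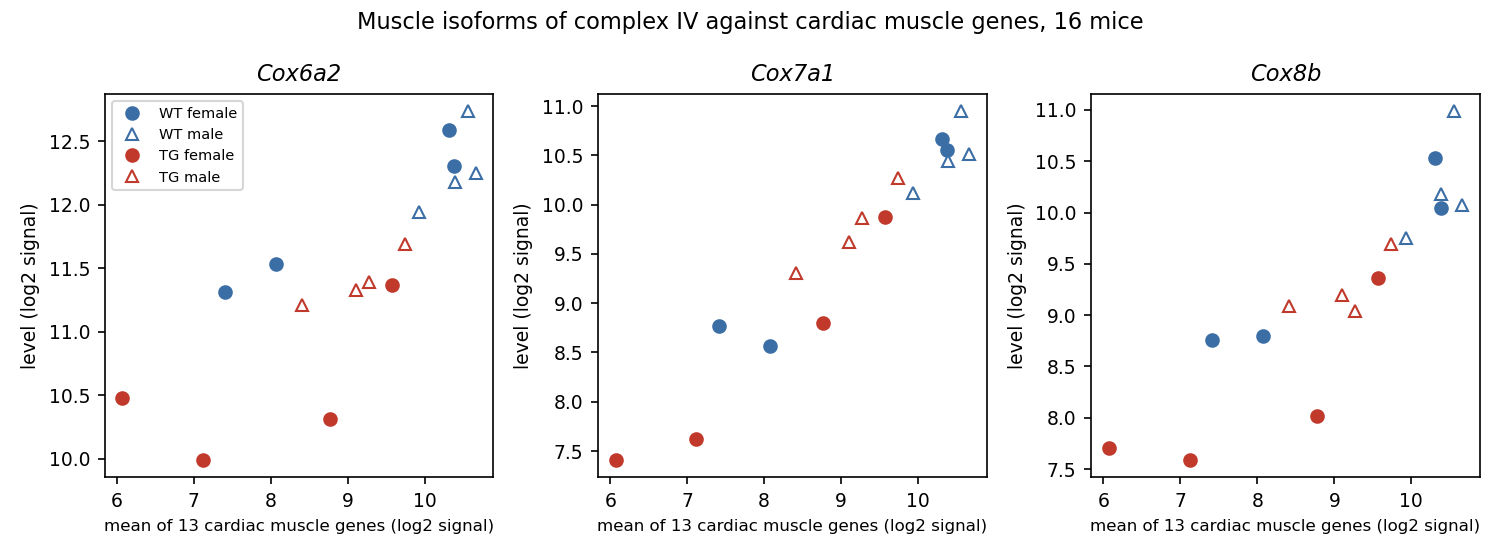
Level of the complex IV muscle isoforms Cox6a2, Cox7a1 and Cox8b (y axes, log2 signal) against the mean of 13 cardiac muscle genes (x axes, log2 signal) in each of the 16 mice. Blue marks WT, red TG, circles females and triangles males. WT females 2 and 3, at 7.41 and 8.07 on the x axes, lie low with the TG mice for all 3 genes.

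Of the remaining complex IV genes, 2 were called lower. Cox6b2, the testis isoform of a subunit that bridges the monomers of the complex IV dimer, lay between 8.20 and 8.91 in WT (median 8.69) and between 7.72 and 8.52 in TG mice (median 8.19) and fell by 0.47 ± 0.13 (SE, adjusted p = 0.0248). Its ubiquitous counterpart Cox6b1 gave -0.32 (adjusted p = 0.0558), with 7 of 8 TG mice below each WT mouse. Ndufa4 fell by 0.37 ± 0.12 (SE, adjusted p = 0.0466), its groups running from 12.09 to 12.86 and from 11.80 to 12.36, and lost its call in 20 of 34 alternatives. Its paralogue Ndufa4l2, known as a target of hypoxia-inducible factor, gave 0.031 (adjusted p = 0.909).

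The lung isoform Cox4i2 lay between 8.57 and 9.29 in WT and between 8.49 and 9.58 in TG mice, with a log2 fold change of 0.17 ± 0.14 (SE, adjusted p = 0.492), and the common isoform Cox4i1 gave 0.0070 (adjusted p = 0.970). For neither isoform was a difference beyond the spread between mice detected. Cox5a, Cox6c and Cox7c gave -0.053, -0.15 and -0.044, and the X-linked Cox7b gave -0.29 (adjusted p = 0.0795). The other testis isoforms, Cox7b2 (0.81 ± 0.40 SE, adjusted p = 0.200) and Cox8c (0.012), were dim, running from 2.71 to 6.20 and from 2.16 to 3.55 over all mice. The median of the complex was -0.17, and -0.057 without the 3 muscle isoforms, a comparison chosen after their values were seen.

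In complex V, Atp5c1 was the only called gene among 15, a share of 6.67% that was close to the 7.08% of all genes called lower. Atp5c1 encodes the gamma subunit, the shaft of the central stalk that turns inside the catalytic head. In WT mice it ran from 13.34 to 13.66 (median 13.52) and in TG mice from 12.66 to 13.34 (median 13.12). Every TG mouse was below every WT mouse, the closest being TG male 2 and WT male 4, both at 13.34 after rounding. No other gene of the 94 had groups that did not overlap in this direction, which 0.893% of all genes did. Atp5c1 fell by 0.42 ± 0.091 (SE, adjusted p = 0.00932), a 1.33-fold lower level, and lost its call only when either sex was fitted alone.

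The catalytic subunits themselves gave -0.32 for Atp5b (beta, adjusted p = 0.0878) and -0.066 for Atp5a1 (alpha, adjusted p = 0.649). Dimmer features of Atp5b, at 12.42 and 8.10, gave -0.58 and -0.59 (limma, adjusted p over all features = 0.0316 and 0.0522). With the mean of all features of a gene, Atp5b was called lower. Atp5d, the delta subunit of the stalk, gave -0.22 (adjusted p = 0.120). The genes of the proton-carrying c ring, Atp5g1, Atp5g2 and Atp5g3, encode the same mature protein, and gave -0.17, -0.035 and -0.030, none called. Of the 4 genes of the peripheral stalk none was called and all were below 0, with a median of -0.12. The small membrane subunits Atp5l, Atp5k and Atp5j2 gave 0.041, 0.023 and -0.16, and the median of the complex was -0.087.

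The 14 assembly factors and other genes had a median of -0.29, below that of each complex. Of the 14, 12 were below 0, where 53.4% of all genes were. Only 1 was called lower, a share of 7.14% that was close to the 7.08% of all genes. The features of these 14 genes were dim, with a mean level of 8.85 in WT mice, against 11.86 over all 94 genes. The 31 genes of the set with the dimmest features also had a median of -0.29. Ndufaf3, which helps to assemble complex I, lay between 8.49 and 9.21 in WT (median 8.90) and between 8.11 and 8.90 in TG mice (median 8.48), and fell by 0.41 ± 0.12 (SE, adjusted p = 0.0375), a call lost in 16 of 34 alternatives. Its partner Ndufaf4 gave -0.40 (adjusted p = 0.0595). Sdhaf2, which is needed to attach the flavin to Sdha, gave -0.75 ± 0.27 (SE, adjusted p = 0.0835), and Sdhaf3, which acts on Sdhb, -0.54 (adjusted p = 0.0698). Cox7a2l, which joins complexes III and IV into supercomplexes, had the highest value of these genes at 0.17 (adjusted p = 0.248). Dmac2, listed on the platform under the Atp5 prefix, gave -0.29 (adjusted p = 0.0633).

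More genes were called in females than in males. In females 24 genes were called lower and 1 higher, where 9% and 7.15% of all genes were called, and the median log2 fold change was -0.24. In males none was called, where 0.337% of all genes were called lower, and the median was -0.088. The log2 fold change was below 0 for 71 of the 94 genes in females and 67 in males, against 51.8% and 53% of all genes. It was lower in females than in males for 64 of the 94, against 50.3% of all genes. In a test of the difference itself no gene of the set was called, nor any of the 24306. At an unadjusted p under 0.05, 12 of the 94 differed between the sexes, close to the 12.9% of all genes.

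Among the assembly factors and other genes, 7 of the 14 were called lower in females, with a median of -0.47, against -0.049 in males. Sdhaf2 gave -1.70 in females (adjusted p = 0.0104) and 0.20 in males (adjusted p = 0.915), and Ndufaf4 -0.85 (0.00916) and 0.049 (0.965). Ndufb2 gave -0.87 in females and -0.32 in males, and Atp5c1 -0.60 and -0.23. The muscle isoforms were low in both sexes, Cox8b at -1.36 and -0.99 and Cox6a2 at -1.39 and -0.87. The calls in females rested on few mice: without TG females 1 and 4 only 1 gene was called, and leaving out 1 mouse gave 13 without WT female 4, 15 without TG female 1 and 16 without each of WT females 1 and 2 and TG female 4, up to 28 without WT male 1.

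**Figure D4:**
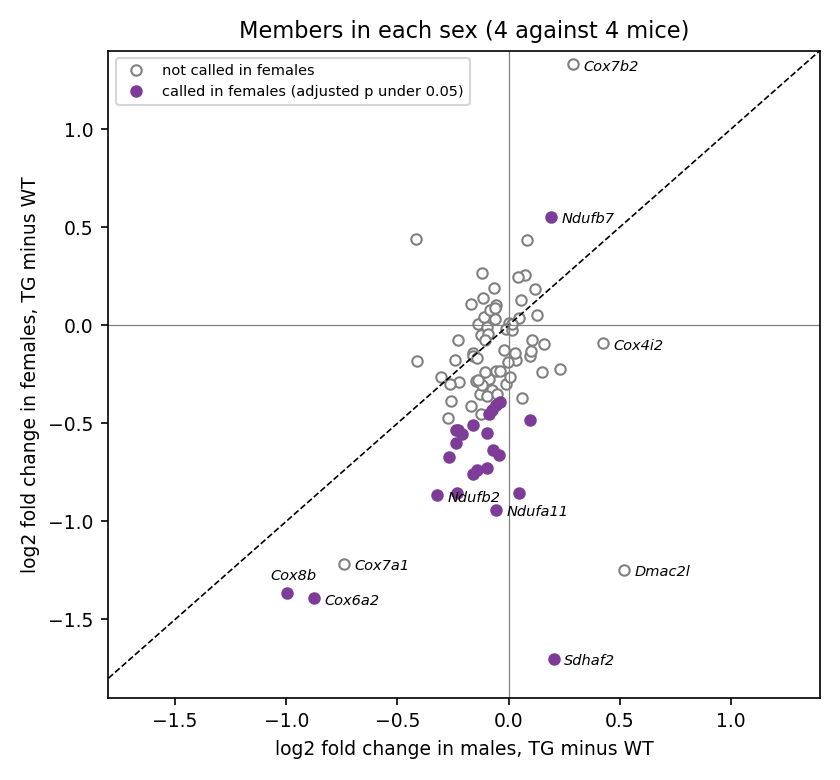
Log2 fold change (TG minus WT) of the 94 genes in females (y axis) against males (x axis), 4 against 4 mice in each sex, with the line of equal change dashed. Filled points are the 25 genes called in females, and 64 of the 94 lie below the dashed line.

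The change also went with the signal of the feature, which depends on the probe as well as on the amount of RNA. Among the 31 genes with the dimmest features 6 were called lower and the median was -0.29. Among the middle 31 these were 7 and -0.17, and among the brightest 32, with features above 13.07, they were 1 and -0.032. Where 1 gene had several features with a mean of at least 8, the dimmest gave a lower log2 fold change than the brightest in 17 of 21 genes, and in 13 of 14 where they were at least 1 apart. Atp5a1 gave -0.066 with its brightest feature at 14.26 and -0.70 with a feature at 10.38 (adjusted p over all features = 0.0429). Atp5o gave -0.087 at 13.59 and -0.41 at 11.55 (adjusted p = 0.0417), and Ndufb5 -0.25 at 12.32 and -0.50 at 9.92 (adjusted p = 0.0228). Whether signals close to the top of the scale understate the change was not tested.

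**Figure D5:**
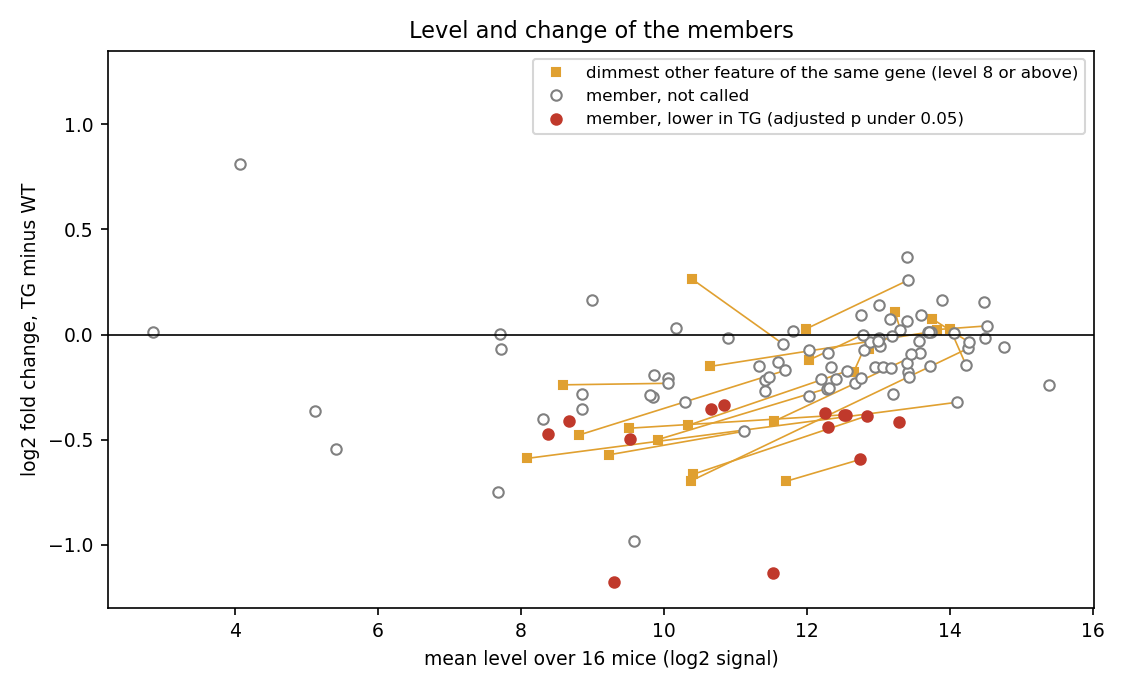
Log2 fold change (TG minus WT, y axis) of each of the 94 genes against its mean level over the 16 mice (x axis, log2 signal). Red points are the 14 genes called lower and open points were not called. Orange squares, joined by a line to the gene's brightest feature, are the dimmest other feature of the 21 genes with several features at a level of at least 8, and lie lower in 17 of them.

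The subunits encoded by mtDNA went the other way. Of 13 genes 11 were measured, and 6 were called higher and 0 lower, where 6.05% and 7.08% of all genes were. Their median log2 fold change was 0.53. ND4L, a membrane subunit of complex I, lay between 13.31 and 14.17 in WT (median 13.74) and between 14.01 and 15.24 in TG mice (median 14.52), and rose by 0.81 ± 0.16 (SE, adjusted p = 0.00552). ND2 lay between 14.81 and 15.41 in WT and between 15.34 and 15.80 in TG mice and rose by 0.53 ± 0.11 (SE, adjusted p = 0.00727). ND4 lay between 14.19 and 14.79 in WT and between 14.82 and 15.55 in TG mice, every TG mouse above every WT mouse, as for 0.86% of all genes (0.53 ± 0.12 SE, adjusted p = 0.01).

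The mean of the 11 genes lay between 13.35 and 13.73 in WT and between 13.60 and 14.46 in TG mice. It was highest in TG females 1 and 4, at 14.46 and 14.29, the arrays that stood apart, and without them 4 genes were called. COX1, COX2 and CYTB, all above 15.5 on all arrays, gave -0.0066, 0.079 and 0.15 and were not called. Whether the end of the scale, just below 16, limited these values was not tested.

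In each of the other lists of nuclear-encoded mitochondrial genes more were called lower than higher, except fatty acid oxidation, where none was called. Over all genes 7.08% were called lower, 6.05% were called higher and 53.4% were below 0. Of 78 mitochondrial ribosome genes 13 were called lower and 1 higher, with a median of -0.18 and 73 below 0. Of 75 cytosolic ribosome genes none was called lower and 1 was called higher (Rps4l), with a median of -0.053. Of 18 genes of the citric acid cycle and pyruvate entry 5 were called lower and none higher (median -0.27), among them the mitochondrial pyruvate carrier Mpc1 (-0.46, adjusted p = 0.00552), malate dehydrogenase Mdh2 (-0.41, 0.00765) and isocitrate dehydrogenase Idh3a (-0.61, 0.00799). For Mpc1 and Mdh2 every TG mouse was below every WT mouse. Of 20 genes of the mobile electron carriers and their feeders 5 were called lower (median -0.26), including Etfdh, which passes electrons from fatty acid oxidation to ubiquinone (-0.64, adjusted p = 0.00907), and cytochrome c, Cycs (-0.35, 0.0186).

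Of a wider list of 48 assembly factors, 11 of them in the set above, 10 were called lower and 2 higher. The ones called higher were Cox17, a copper chaperone of complex IV (0.85, adjusted p = 0.00905), and Timmdc1, which helps to assemble complex I (0.62, 0.0369). Of 16 genes of fatty acid oxidation none was called (median -0.16). Of 20 glycolytic genes 4 were called lower (median -0.10), including Pgam1 (-0.41, adjusted p = 0.00897) and the glucose transporter Slc2a1 (-0.35, 0.0490). Of 29 genes of import and contact sites 6 were called lower (median -0.17), and of 12 genes of ADP/ATP exchange and uncoupling 1, Slc25a5 (-0.61, adjusted p = 0.0134), a share of 8.33% that was close to that of all genes.

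Among 19 regulators of mitochondrial biogenesis 3 were called lower (median -0.076). Gabpa, the DNA-binding subunit of an activator of respiratory genes, lay between 8.14 and 8.60 in WT and between 7.37 and 8.12 in TG mice, with no overlap, and fell by 0.55 ± 0.11 (SE, adjusted p = 0.00664). Polg2, the accessory subunit of the mtDNA polymerase, also had groups that did not overlap (-0.34, adjusted p = 0.0427), and Tfb1m gave -0.48 (0.0475). Markers of immune cells moved beside all of these values. Of 9 NK cell genes 8 were called lower, their mean lying between 7.62 and 8.66 in WT and between 4.24 and 5.13 in TG mice. Of 7 alveolar macrophage genes 2 were called lower, their mean lying between 10.66 and 11.66 in WT and between 10.22 and 10.96 in TG mice, whereas none of 8 alveolar type 2 genes was called. Of 5 B cell genes 3 were called lower, with a median of -0.89 and a mean lying between 8.37 and 9.82 in WT and between 7.67 and 8.99 in TG mice. Of 6 eosinophil genes 2 were called lower, with a median of -0.50. Their mean lay between 4.82 and 6.21 in WT and between 4.67 and 5.28 in TG mice. In this list 3 genes were below 0 and 3 above it. The median of the list was -0.90 in females, with 3 called lower, and -0.10 in males, with 0 called. Among 6 T cell genes 1 was called lower and 0 higher, with a median of -0.10, where 7.08% of all genes were called lower. By flow cytometry the paper found more eosinophils, B cells and CD4 and CD8 T cells in TG lungs. It also found fewer alveolar macrophages and almost no NK cells there. Whether these marker genes follow the number of cells was not tested, nor was the part of immune cells in the falls above.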

How the data were processed

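RNA of 16 right lungs was labelled and hybridised to 1-colour Agilent arrays (62976 features). The deposited log2 values had been made by the authors, who per their methods corrected the intensities for background and quantile normalised them with limma. The background method is not given in the sources used here, and the arrays end at a common maximum just below 16. The labels name Trizol extraction and Cy3, the methods another kit and dye. Of the features, 43941 had 1 gene symbol and 19035 none; symbols were updated by accession, and 3 of the 94 genes were renamed. Not every subunit of the complexes was analysed here.

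All 24306 genes were fitted with limma (version 3.58.1, R 4.3.3) on 4 group means (genotype by sex), and p-values were adjusted by Benjamini-Hochberg over all of them. No p was computed for the set as a whole. Single values were compared over mice, and correlations were tested by permutation. The fit was tested on simulated data with 200 changed genes. The members and lists were chosen with earlier results of these data known. All members were accounted for; those named with values were the called ones, the 3 smallest adjusted p and the extremes of each complex, isoform pairs, and up to 3 genes of each other list. Other members named were chosen after their values were seen. Alternatives covered the feature per gene, dim genes, normalisation, test, threshold, sexes and mice left out. Precision is limited by the number of arrays, 4 per group.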

Additional observations from a re-analysis of the deposited data

Results flagged for a closer look

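The 8 WT and the 8 TG mice were checked for a mouse far from the others in 64 named genes and 8 means, 144 groups of values in all. Chance flags about 1 in 20 groups, and 10 were found. In 8 of the 10 the mouse was WT male 1, 1 of the 3 arrays that had stood apart. It was highest among WT mice for Cox6c (14.35, the others 13.49 to 13.88), for Ndufb7 (13.56, the others 13.10 to 13.26), for Atp5k (13.89, the others 13.06 to 13.33), for Ndufa5 (13.61, the others 12.64 to 13.04), for Uqcr11 (13.97, the others 13.18 to 13.37), for Uqcrq (14.16, the others 13.43 to 13.76) and for the centred mean of complex III (0.25, the others -0.093 to 0.049), and lowest for the assembly factor Sdhaf2 (6.74, the others 7.86 to 8.61). WT male 4 was lowest for Ndufb11 (13.20, the others 13.49 to 13.69) and for Ndufa13 (14.09, the others 14.49 to 14.66). None of these genes was called, and without WT male 1 Ndufb7 was called higher.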

How the results depend on the processing

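The difference of the mean over all 94 genes was below 0 under every alternative run (-0.20 to -0.16 leaving out 1 mouse at a time). The count of genes called lower, 14, was 29 after a filter on dim genes and 35 after a stricter one, 27 with a trended and robust variance, 22 with array weights, 3 at an adjusted p under 0.01 and 33 under 0.1, 5 without TG females 1 and 4, 8 in females fitted alone and 0 in males fitted alone. Leaving out 1 mouse it was 9 (without WT male 3 or TG male 1) to 18. The count called higher, 0, was 1 (Ndufb7) under the replicate block, under either filter on dim genes, with a trended and robust variance, array weights, an exact Wilcoxon test or a threshold of 0.1, and 0 to 1 leaving out 1 mouse (1 without WT male 1 or TG female 3). The median of complex III was -0.088 without TG females 1 and 4, and -0.043 (without TG female 1) to 0.061 (without WT male 1) leaving out 1 mouse. The 25 calls in females were 8 at 0.01, 3 without the 3 arrays that stood apart, 1 without TG females 1 and 4, and 13 to 28 leaving out 1 mouse. The mtDNA-encoded genes called higher, 6, were 2 at 0.01, 1 in females alone, 0 in males alone and 4 to 7 leaving out 1 mouse. The cause was not tested.

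Mice with the same replicate number correlated at -0.11 to 0.17 (mean 0.020, against -0.0064 for other pairs), and 7 of 16 mice correlated best with their own number. Whether the replicate numbers pair the mice was not tested. With the replicate number as a block, 12 genes were called lower.

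Over all 94 genes, 10 had the other sign in females and 18 in males, none of them among the 14. The other alternatives were run gene by gene for the 64 named genes, and directions turned only for genes that were not called. In females alone these were Atp5a1 (0.0048), Ndufa5 (0.043), Uqcrb (0.080), Cox4i2 (-0.092), Ndufa4l2 (-0.097), Atp5g2 (0.028), Atp5g3 (0.11), Ndufa1 (0.032) and Sdhd (-0.075), and in males alone Atp5k (-0.058), Cox7c (0.15), Ndufs1 (0.0059), Uqcr11 (-0.064), Uqcrq (-0.063), Cox8a (0.027), Cox8c (-0.42), Sdhc (0.10), Ndufaf4 (0.049) and Sdhaf2 (0.20). With the mean of all features they were Atp5j2 (0.15), Cox7c (0.11), Uqcr10 (-0.069), Atp5d (0.032), Atp5g2 (0.010) and Ndufv2 (0.035), with cyclic loess Ndufa13 (0.0060), Uqcrb (0.022), Cox8c (-0.010), Ndufa1 (0.0075) and Sdhc (0.0089), and with array weights Ndufa5 (0.040), Uqcrb (0.015), Cox4i1 (-0.0095), Cox8c (-0.015) and Sdhd (-0.0073). Without TG females 1 and 4 they were Atp5k (-0.052), Uqcr10 (-0.024), Uqcrq (-0.053), Cox4i1 (-0.0030), Cox8c (-0.13) and Sdhd (-0.0080), and without the 3 arrays Ndufa13 (0.021), Ndufa5 (0.042), Cox4i1 (-0.014), Cox8c (-0.049) and Sdhd (-0.018). Leaving out 1 mouse, genes near 0 turned, with ranges of -0.015 to 0.11 (Atp5k), -0.11 to 0.015 (Cox7c), -0.082 to 0.014 (Ndufa13), -0.089 to 0.070 (Ndufa5), -0.028 to 0.057 (Uqcr10), -0.058 to 0.065 (Uqcrb), -0.042 to 0.080 (Uqcrq), -0.064 to 0.011 (Atp5g3), -0.0027 to 0.079 (Atp5l), -0.020 to 0.038 (Cox4i1), -0.062 to 0.096 (Cox8c), -0.060 to 0.030 (Ndufa1), -0.030 to 0.083 (Ndufa4l2), -0.076 to 0.034 (Sdhc) and -0.037 to 0.049 (Sdhd).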
